A study of Mus musculus with 9 samples.

Results

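Calnexin, calreticulin and 8 further genes of protein folding in the endoplasmic reticulum (ER) were followed in mouse regulatory T (Treg) cells. Members were chosen by gene symbol, as the probe sets annotated exactly as Canx, Calr, Hspa5, Hsp90b1, Pdia3, Pdia4, Pdia6, Dnajb11, Herpud1 or Xbp1. Of these 10 genes, 9 had such a probe set, 1 each, out of 22180 genes and 41345 probe sets on the array. The probe set annotated to Pdia4 also names the microRNA gene Mir704, so no level is given for Pdia4. The group was selected on earlier results of these same samples, in which the difference between genotypes had passed a test for Canx and Calr, so the differences below are given as a description of these samples and not as independent evidence.

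Treg cells, the CD4 T cells that hold other immune cells in check, need the transcription factor Foxp3 for their identity. The study profiled 9 samples with 1 whole-transcript array each, 5 labelled wild type (WT) and 4 labelled Mst1/Mst2-null (KO here). WT cells came from C57BL/6 Foxp3YFP-Cre donors, which express YFP and Cre from the Foxp3 locus. KO cells came from Foxp3YFP-CreStk4f/fStk3f/f donors, in which Cre acts in Foxp3-expressing cells on loxP-flanked Stk4 and Stk3, the genes of the Hippo pathway kinases Mst1 and Mst2. Both groups therefore carry the Foxp3YFP-Cre allele and differ in the floxed alleles. All cells were CD45.2+ CD4+YFP+ and were sorted from RAG1-/- recipients 2 months after transplantation of donor marrow mixed with WT CD45.1 marrow. The age of the mice is not given in the labels, and nothing says whether samples of a group came from separate chimeras, so p-values reflect only the scatter among these 9 samples, which may be technical.

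Newly made secretory and membrane proteins enter the ER through the Sec61 channel and are folded there by chaperones. Calnexin, anchored in the ER membrane, and calreticulin, its soluble relative in the lumen, are calcium-binding lectins that hold glycoproteins carrying a trimmed N-linked sugar until they fold. Pdia3 forms disulfide bonds in their clients, and all 3 proteins take part in loading peptides onto MHC class I. When unfolded proteins accumulate, the sensors Ire1, Perk and Atf6 start the unfolded protein response, in which the factors Xbp1 and Atf6 raise transcription of many of these chaperones.

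The promoters of several members share a sequence element named for the ER stress response. The choice of members did not use it, but the members are ER genes, so its presence among them is a description and not independent evidence. The ER stress response element (ERSE), bound by the factor NF-Y together with Atf6, has the letters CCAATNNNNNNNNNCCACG, and a shorter relative called ERSE-II has the letters ATTGGNCCACG. Both were searched on both strands in RefSeq promoter windows of 300 bases (GRCm38.p6, from 250 bases before to 50 after the gene start). All 10 members had a window, and 7 of them held an exact match to either motif. Among the 27025 genes with a window, 49 held one, or 0.181%. Among 127 other genes with a window, from the ER pathway lists followed below, 6 held one, or 4.72%. ERSE was found in Canx, Calr, Hspa5, Hsp90b1 and Pdia6, and ERSE-II in Dnajb11 and Herpud1, while these letters were not in the windows of Pdia3, Pdia4 and Xbp1. The 250 bases before the start of the 2 genes whose levels differed most are printed whole, in the direction of transcription and with the element in capitals. The Canx stretch is chr11:50325674-50325923 on the minus strand, and the Calr stretch is chr8:84846932-84847181 on the minus strand.
Canx: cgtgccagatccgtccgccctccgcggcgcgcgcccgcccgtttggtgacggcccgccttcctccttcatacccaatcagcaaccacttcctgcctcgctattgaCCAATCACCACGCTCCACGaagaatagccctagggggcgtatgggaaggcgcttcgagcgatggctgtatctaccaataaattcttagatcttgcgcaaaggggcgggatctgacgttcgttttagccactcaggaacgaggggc
Calr: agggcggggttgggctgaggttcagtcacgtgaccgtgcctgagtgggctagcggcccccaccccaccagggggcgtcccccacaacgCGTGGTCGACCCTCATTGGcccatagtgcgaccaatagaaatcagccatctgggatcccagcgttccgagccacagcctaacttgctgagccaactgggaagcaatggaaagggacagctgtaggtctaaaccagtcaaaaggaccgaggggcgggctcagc

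In Canx the element began 145 bases before the start. In Calr it began 162 bases before the start and lay on the opposite strand, so that the printed strand reads its reverse complement. The other matches are shown with short flanks, to let the spacers and the orientation be compared. They lie at chr2:34772013-34772055 on the plus strand (Hspa5), chr10:86705626-86705668 and chr10:86705521-86705563 on the minus strand (Hsp90b1, 2 matches), chr12:17266479-17266521 on the plus strand (Pdia6), chr8:94386365-94386399 on the plus strand (Herpud1) and chr16:22857844-22857870 on the plus strand (Dnajb11).
Hspa5: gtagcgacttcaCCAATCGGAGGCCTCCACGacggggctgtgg
Hsp90b1, farther match: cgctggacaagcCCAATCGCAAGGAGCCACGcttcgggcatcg
Hsp90b1, nearer match: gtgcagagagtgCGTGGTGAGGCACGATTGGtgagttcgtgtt
Pdia6: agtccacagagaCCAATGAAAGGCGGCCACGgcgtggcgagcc
Herpud1: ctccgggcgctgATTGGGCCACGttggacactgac
Dnajb11: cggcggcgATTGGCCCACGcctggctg

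The CCAAT and CCACG ends are the same in the ERSE matches by construction of the search, and the 9 bases between them differ from gene to gene. The nearer match of Hsp90b1, like that of Calr, runs against the direction of transcription. The Dnajb11 match lies just after the start, from base 8 to base 18. A match of letters describes the window and does not show that a factor binds there.

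**Figure D1:**
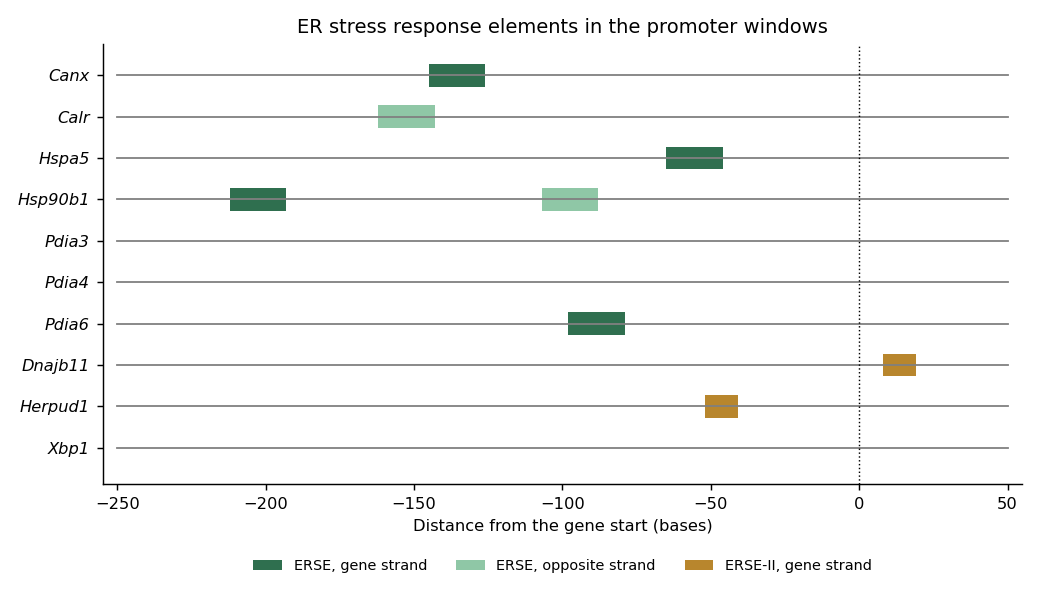
Position of each ERSE and ERSE-II match (boxes) along the promoter window of each of the 10 genes (lines), on an axis of distance from the gene start in bases. Dark green and light green boxes are ERSE on the gene strand and on the opposite strand, brown boxes are ERSE-II. Elements stand between 212 bases before the start (Hsp90b1) and 18 bases after it (Dnajb11), and Pdia3, Pdia4 and Xbp1 have none.

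Levels below are log2 RMA values as the authors deposited them, and each difference is KO minus WT. Every value of the 9 measured members lay above 4.04, the median of all probe sets on the array, with a range from 6.26 to 10.30. Levels are compared between samples for each gene and not between genes, since probe sets respond differently to the same amount of RNA. Treg cell markers were high in both groups: all 8 fixed markers lay above the array median, Foxp3 was 10.70 ± 0.049 (SD, n = 5) in WT and 10.72 ± 0.092 (SD, n = 4) in KO, and 1 of the 8, the transcription factor gene Ikzf2, fell from 10.03 ± 0.15 (SD, n = 5) to 9.31 ± 0.34 (SD, n = 4) (limma adjusted p = 0.033). As a list these markers had lower values in KO: their mean level lay between 9.90 and 9.96 in WT samples and between 9.57 and 9.78 in KO samples, with a median difference of -0.23 (-0.19 after quantile normalisation), and 6 of the 8 had a negative difference. At an unadjusted p below 0.05, 5 were lower, against 9.8% of all genes, and 0 higher. These were Ikzf2, the T cell receptor subunit genes Cd3e (-0.31) and Cd3g (-0.32), both with KO below WT in all samples, Tnfrsf18 (-0.28) and Cd4 (-0.18). Of all genes, 1.89% were called lower and 4.4% had KO below WT in all samples. The latter share was 11.3% among genes at least as bright as the dimmest of the 9 members. This list moved in the same direction as the ER folding genes, and its part in their differences was not tested. Stk4 was between 7.84 and 8.09 in WT and between 7.50 and 7.83 in KO (limma adjusted p = 0.146). Its probe set covers the whole transcript and does not check the deletion, and no probe set was annotated to Stk3 alone. In these bulk samples, fewer cells that express a gene and less RNA per cell cannot be told apart.

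All 9 measured members were lower on average in KO samples, and Canx and Calr fell. Differences ran from -0.61 (Canx) to -0.12 (Hspa5), with a median of -0.25, against a median of 0.0023 over all 22180 genes. In the limma fit over all genes, where a call is a Benjamini-Hochberg adjusted p below 0.05, 2 of the 9 were called lower and 0 higher. Over all genes 1.89% were called lower and 0.428% higher. Groups did not overlap, with KO lower, in 5 of the 9 members and in 4.4% of all genes. At an unadjusted p below 0.05, 6 members were lower, against 9.8% of all genes. Genes of high signal leaned the same way: among the 4518 genes at least as bright as the dimmest member, 64% had a negative difference, with a median of -0.058, 4.74% were called lower, and in 11.3% the groups did not overlap with KO lower. After quantile normalisation of the gene values between samples, the median of these bright genes moved to 0.0077 and that of the members to -0.19, while all 9 members kept a negative difference. The same rescaling moved the share of higher calls among all called genes from 18.4% to 35.7%.

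**Figure D2:**
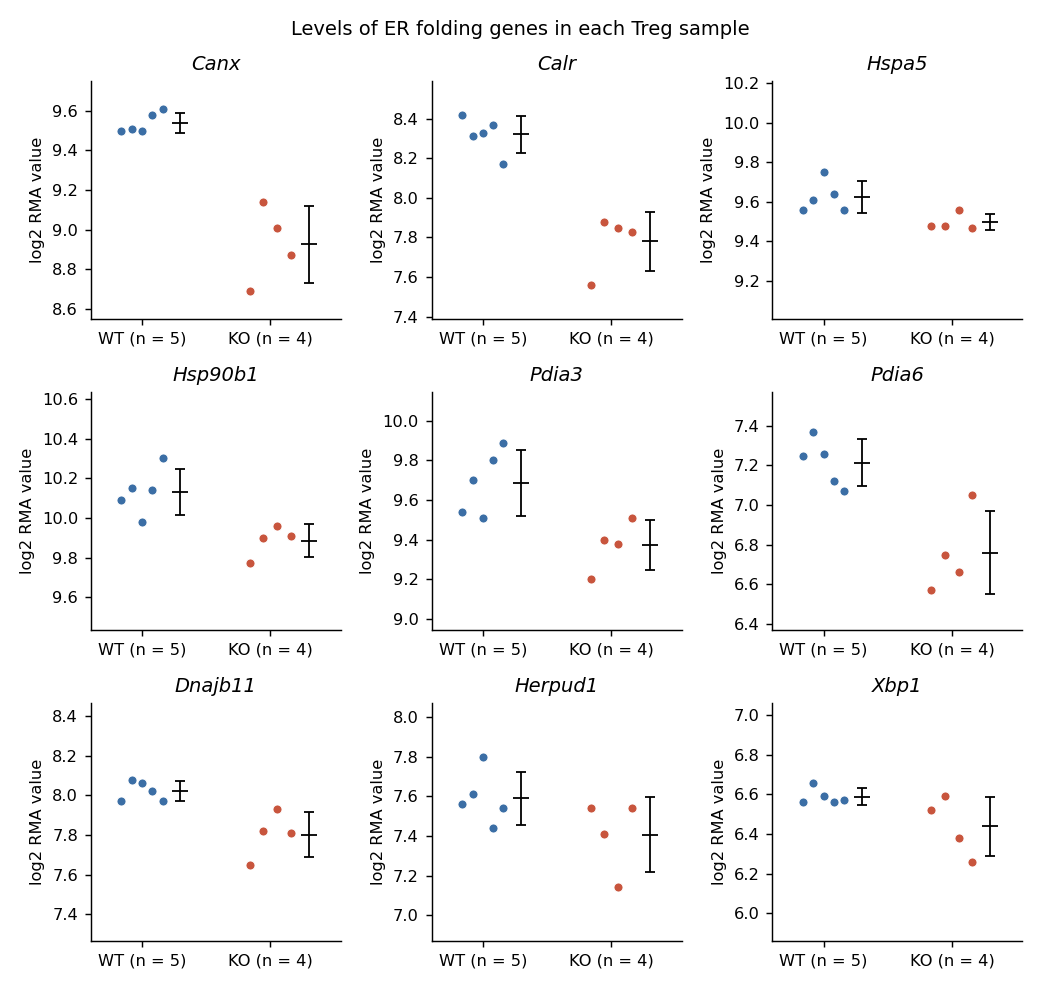
Level of each measured ER folding gene in every sample (points, log2 RMA value on the vertical axes, each axis spanning the same number of log2 units) in WT (blue) and KO (red) Treg cells, with mean and SD in black. WT and KO points are fully separated for Canx, Calr, Hsp90b1, Pdia6 and Dnajb11, and overlap or touch for Hspa5, Pdia3, Herpud1 and Xbp1.

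The calnexin cycle lectins showed the 2 largest differences. Canx, which encodes calnexin, read 9.50, 9.51, 9.50, 9.58 and 9.61 in WT replicates 1 to 5 and 8.69, 9.14, 9.01 and 8.87 in KO replicates 1 to 4. The WT samples lay close together and each KO sample lay at least 0.36 log2 units below the lowest of them, with KO replicate 1 the lowest. The mean fell from 9.54 ± 0.052 (SD, n = 5) to 8.93 ± 0.19 (SD, n = 4), a difference of -0.61 ± 0.089 (SE) with a 95% interval from -0.81 to -0.42, or 1.53-fold lower (limma adjusted p = 0.00735). Calr, which encodes calreticulin, read 8.42, 8.31, 8.33, 8.37 and 8.17 in WT and 7.56, 7.88, 7.85 and 7.83 in KO. KO replicates 2 to 4 lay close together, KO replicate 1 lay below them, and the gap to the lowest WT sample was 0.29. The mean fell from 8.32 ± 0.095 (SD, n = 5) to 7.78 ± 0.15 (SD, n = 4), a difference of -0.54 ± 0.083 (SE) with a 95% interval from -0.72 to -0.36, or 1.45-fold lower (limma adjusted p = 0.00937).

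Among the protein disulfide isomerases, Pdia6 stood closest to a call. It encodes an isomerase that works with the chaperone BiP. Its values were 7.25, 7.37, 7.26, 7.12 and 7.07 in WT and 6.57, 6.75, 6.66 and 7.05 in KO. KO replicate 4 lay just under the lowest WT sample and the other KO samples well below it. The difference was -0.46 ± 0.10 (SE, limma adjusted p = 0.0506), and without KO replicate 4 it was -0.55 and passed the threshold (limma adjusted p = 0.0106). KO replicate 4 is the KO sample nearest to WT for this gene. With any 1 other sample left out, 8 fits in all, Pdia6 did not pass (limma adjusted p from 0.0668 to 0.132). Pdia3, the isomerase that partners calnexin and calreticulin, read 9.54, 9.70, 9.51, 9.80 and 9.89 in WT and 9.20, 9.40, 9.38 and 9.51 in KO. WT replicate 3 and KO replicate 4 held the same value, so the groups touched, and KO replicate 1 was again the lowest sample. Its difference was -0.32 ± 0.097 (SE, 95% interval from -0.53 to -0.10, limma adjusted p = 0.14).

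The Hsp70 and Hsp90 chaperones of the ER had smaller differences. Hspa5 encodes BiP, the ER Hsp70 that also holds the stress sensors inactive. It read 9.56, 9.61, 9.75, 9.64 and 9.56 in WT and 9.48, 9.48, 9.56 and 9.47 in KO. Of the KO samples, 3 lay below the lowest WT value and the fourth matched it. The difference of -0.12 ± 0.061 (SE) had a 95% interval from -0.26 to 0.011 (limma adjusted p = 0.382). Hsp90b1 encodes Grp94, the ER Hsp90, and is known as a chaperone of integrins and Toll-like receptors. It read 10.09, 10.15, 9.98, 10.14 and 10.30 in WT and 9.77, 9.90, 9.96 and 9.91 in KO. The groups stood apart by 0.024 log2 units only, and the difference was -0.25 ± 0.075 (SE, limma adjusted p = 0.139). Dnajb11, an Hsp40 co-chaperone of BiP, lay between 7.97 and 8.08 in WT and between 7.65 and 7.93 in KO. Its groups did not overlap, and the difference was -0.22 ± 0.067 (SE, limma adjusted p = 0.142).

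Herpud1 and Xbp1 stand for the stress response itself. Herpud1 encodes a membrane protein of ER-associated degradation. It lay between 7.44 and 7.80 in WT and between 7.14 and 7.54 in KO, with KO replicates 1 and 4 inside the WT range. The difference was -0.18 ± 0.10 (SE, 95% interval from -0.41 to 0.041, limma adjusted p = 0.453). Xbp1, the transcription factor activated by Ire1 through splicing of its mRNA, lay between 6.56 and 6.66 in WT and between 6.26 and 6.59 in KO. KO replicate 2 lay inside the WT range and replicate 4 was the lowest. The difference was -0.15 ± 0.075 (SE, 95% interval from -0.32 to 0.016, limma adjusted p = 0.392). These values sum over the gene's transcripts, so spliced and unspliced Xbp1 mRNA were not measured apart.

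**Figure D3:**
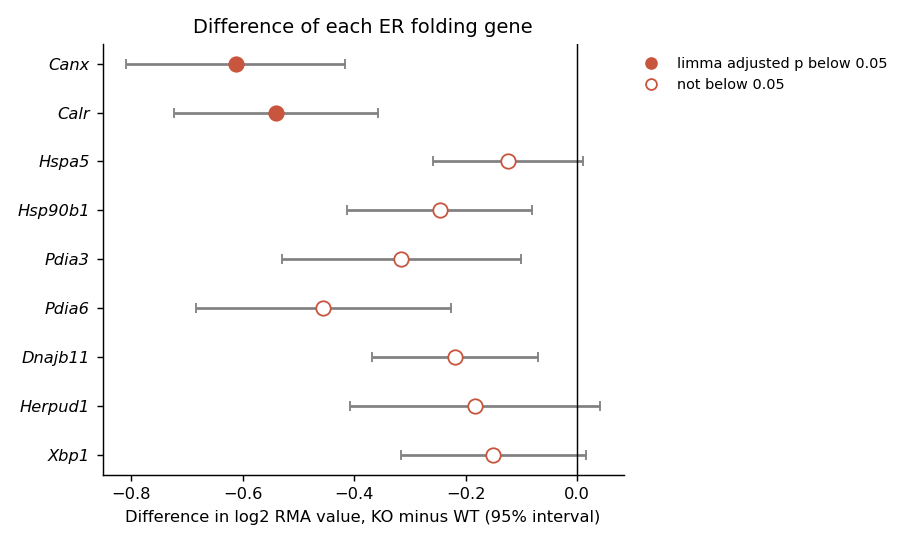
Difference in log2 RMA value, KO minus WT, for each of the 9 measured genes, with its 95% interval from the limma fit. Filled points passed the threshold of 0.05 on the adjusted p (Canx and Calr) and open points did not, and the intervals of Hspa5, Herpud1 and Xbp1 include 0.

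The members were also followed sample by sample. Expressed as the log2 value minus the gene's own mean over the 9 samples, the average of the 9 members lay between 0.11 and 0.17 in WT samples. It lay between -0.27 and -0.12 in KO samples. KO replicate 1 had the lowest average and held the lowest value of 6 of the 9 members, Canx, Calr, Hsp90b1, Pdia3, Pdia6 and Dnajb11. That sample did not hold the lowest value of Hspa5, Herpud1 or Xbp1, and every member had its highest value in a WT sample. KO replicate 1 was also 1 of 3 samples with low values of the inducible cytosolic heat shock genes: Hspa1a was 3.18 there, 2.80 in WT replicate 2 and 5.18 in WT replicate 1, and between 8.11 and 9.93 in the remaining samples. WT replicate 2 had the lowest Hspa1a value and the highest average of the members (0.17), while WT replicate 1 had the lowest average among WT samples (0.11). With the mean of Hspa1a and Hspa1b as a covariate, the differences were -0.62 for Canx (limma adjusted p = 0.0054) and -0.55 for Calr (limma adjusted p = 0.0145). Hspa1a (0.33 ± 1.76, SE) and Hspa1b (0.40 ± 1.64, SE) differed little between genotypes beside their scatter. The covariate could therefore move these differences little, and a part of heat shock in them was not tested. Without KO replicate 1 the differences were -0.53 for Canx (limma adjusted p = 0.0165) and -0.47 for Calr (limma adjusted p = 0.0214).

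**Figure D4:**
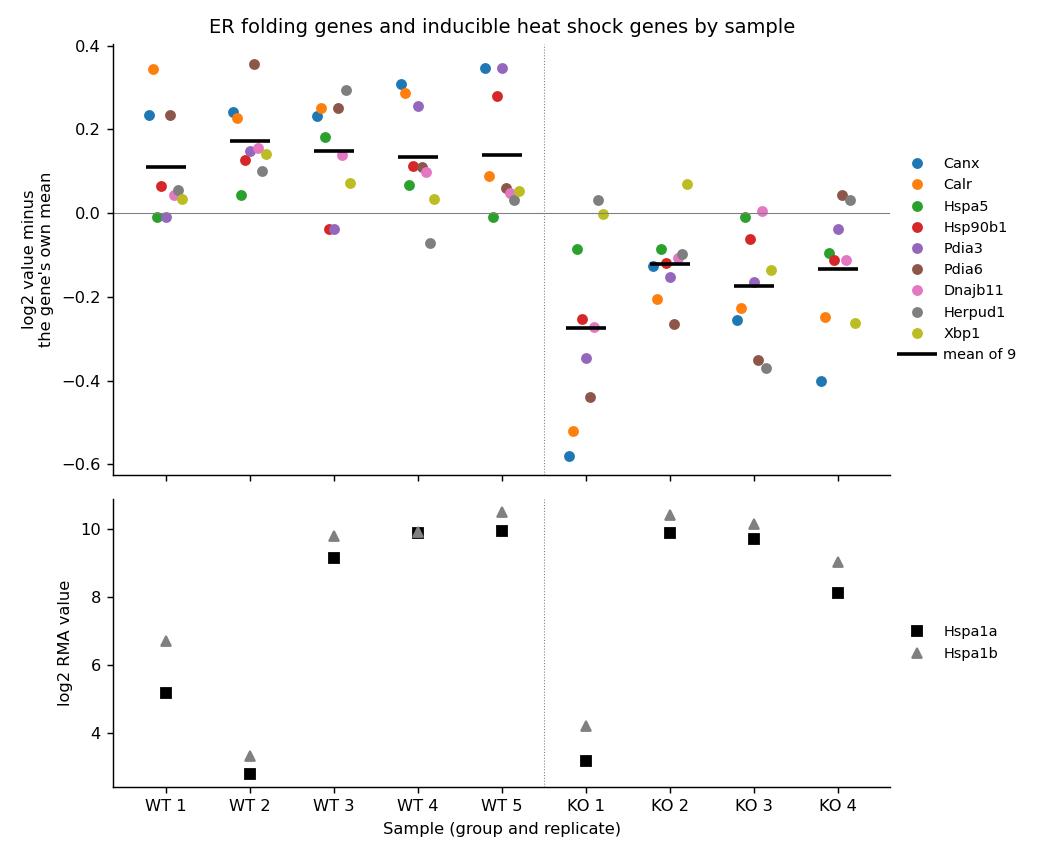
Upper panel: log2 value of each ER folding gene minus that gene's own mean over the 9 samples (coloured points, 1 colour per gene, black bars the mean of the 9 genes) in each WT and KO sample. Lower panel: log2 RMA value of Hspa1a and Hspa1b in the same samples. The mean of the ER genes lies at or above 0.11 in each WT sample and at or below -0.12 in each KO sample, while the heat shock genes are low in WT replicates 1 and 2 and KO replicate 1.

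The genes with profiles most like Canx and Calr were found as those with the smallest root-mean-square difference over the 9 samples, after each gene's own mean was subtracted. For Canx these were Aplp2 (0.063 log2 units), which encodes a relative of the amyloid precursor protein, the T cell adaptor gene Lax1 (0.094), the actin regulator gene Coro1b (0.096), Tram1 (0.10), whose protein assists translocation into the ER, and Ccdc125 (0.11). For Calr they were Dynlt3 (0.086), a dynein light chain gene, Pitpnm2 (0.088), Arel1 (0.093), Hmgn3 (0.096) and Tmbim4 (0.097). Calr ranked 10th by this measure for Canx (0.11), and Canx ranked 23rd for Calr. Pdia6 ranked 78th for Calr and 438th for Canx, and Hspa5 ranked 1862nd and 2436th. The 5 nearest genes of each were thus not members, and Calr was the member nearest to Canx. The measure takes in the difference between genotypes, on which Canx and Calr had been chosen. Ranks thus partly restate the size of that difference and do not show shared regulation. All 10 nearest genes were called lower in KO, with differences from -0.62 (Aplp2) to -0.44 (Tram1). Of these 10 genes 1, Arel1, had a second probe set, with a difference of -0.25 and no call (limma adjusted p = 0.264).

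Beyond the members, 158 genes of 10 ER pathway lists were measured. Of these, 7 fell and 1 rose, or 4.43% lower against 1.89% of all genes and 4.74% of the genes as bright as the members. At these shares a count of 0 or 1 in a single list is near the background and is not a result about that list. A negative difference was found for 99 of the 158 (62.7%), with a median of -0.090. This share was 49.3% over all genes and 64% among the genes at least as bright as the dimmest member. After quantile normalisation 95 of the 158 had a negative difference, with a median of -0.040, against 48.3% of those bright genes. The lists were not filtered by brightness, so the shares of bright genes are not over like sets. The count of falls was 4 without WT replicate 2, 4 or 5, 3 without KO replicate 1 and 14 without KO replicate 2.

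Genes of protein entry into the ER had the most calls and formed the longest of the lists. Of 23 translocon, signal recognition and signal peptidase genes, 3 fell and 1 rose, with a median of -0.14. Among all genes 1.89% were called lower and 0.428% higher, and 4.74% of the genes as bright as the members were called lower. This list was not filtered by brightness, so the 4.74% may not be over a like set. Whether its calls exceed these shares was not tested. Tram1 fell 1.36-fold, from 9.17 ± 0.054 (SD, n = 5) to 8.73 ± 0.13 (SD, n = 4) (limma adjusted p = 0.0126). Srp72, a protein of the signal recognition particle, fell 1.26-fold (limma adjusted p = 0.0291), and Sec11c, a signal peptidase subunit named here after its value was seen, fell 1.23-fold (limma adjusted p = 0.0487). Srprb, the membrane-bound subunit of the particle's receptor, rose 1.33-fold, from 6.06 ± 0.087 (SD, n = 5) to 6.47 ± 0.10 (SD, n = 4) (limma adjusted p = 0.0167). Leaving out any 1 of WT replicates 1, 2, 4 or 5 or of KO replicates 1 or 4 left 1 fall in this list, and leaving out KO replicate 2 gave 5. The rise was lost without WT replicate 4 or KO replicate 1. Of 11 oligosaccharyltransferase genes, whose products attach the N-linked sugar, 0 were called by limma (median -0.13). At an unadjusted p below 0.05, 5 of these genes were lower and 1 higher, against 9.8% of all genes lower. The smallest p was for Rpn2 (difference -0.37, limma adjusted p = 0.0795).

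Other genes of the calnexin cycle and of the ER Hsp70 system had no calls. With 1.89% of all genes called lower and 0.428% higher, this is near the background for lists so small and does not set Canx and Calr apart from them. Of 14 further genes of the cycle and of glycoprotein handling, limma called 0, 7 had a negative difference, and the median was 0.0028 (-0.0040 after median centring). At an unadjusted p below 0.05, 5 of the 14 were lower and 0 higher, against 9.8% of all genes lower. Ganab, the catalytic subunit of glucosidase II that trims the sugar, had the smallest p, with groups that did not overlap (difference -0.40, limma adjusted p = 0.0643). Uggt1, which adds the glucose back to unfolded proteins and is named here for its role, differed by 0.051. Of 11 genes of the ER Hsp70 and Hsp40 system limma called 0 (2 lower and 1 higher at an unadjusted p below 0.05), and the smallest p was that of Hyou1, an Hsp70 relative that exchanges nucleotides on BiP (difference -0.36, limma adjusted p = 0.14). Their median was -0.036, and 0.036 after quantile normalisation. Without KO replicate 2, limma called 2 genes of the calnexin cycle list, 1 of the Hsp70 and Hsp40 list and 1 of the oligosaccharyltransferase list lower. That fit called 594 genes in all, against 515 with all samples. Leaving out any 1 other sample gave 0 calls in these lists.

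Disulfide formation and proline isomerisation genes had 1 fall of 21 (median -0.15), and 2 without KO replicate 4. The 1 fall is 4.76%, against 1.89% of all genes and 4.74% of the genes as bright as the members. This list was not filtered by brightness and holds genes dimmer than every member, so the 4.74% is not over a like set. Txndc12, an ER thioredoxin-like protein, fell 1.60-fold, from 6.13 ± 0.12 (SD, n = 5) to 5.46 ± 0.21 (SD, n = 4) (limma adjusted p = 0.00937). In ER-associated degradation 1 of 22 fell (median -0.086): Faf2, which recruits the extracting ATPase, fell 1.27-fold (limma adjusted p = 0.0335), a call lost when any 1 of WT replicates 2 to 5 or KO replicates 1, 3 or 4 was left out. Among 15 genes of ER calcium handling 1 fell, Sdf4, which encodes a calcium-binding protein of the secretory pathway (1.38-fold, limma adjusted p = 0.0151). A negative difference was found for 12 of them (80%, median -0.19), against 49.3% of all genes and 64% of the genes as bright as the members. The call of Sdf4 was lost without KO replicate 1, and 2 genes of the list were called lower without KO replicate 2 or 4. Of 10 genes of MHC class I peptide loading, the process that uses Canx, Calr and Pdia3, Erap1 fell and the other 9 were not called (median -0.055). Erap1, the ER aminopeptidase that trims peptides, lay between 7.82 and 8.12 in WT and between 7.29 and 7.61 in KO, a fall of 1.46-fold (limma adjusted p = 0.00944).

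Sensors and effectors of the unfolded protein response had 0 limma calls among 21 (median -0.093, and 11 negative differences). At an unadjusted p below 0.05, 2 were lower and 3 higher, against 9.8% of all genes lower. Without KO replicate 4, 1 was called lower. The smallest p belonged to Atf4, the transcription factor translated after Perk activity. It was 9.23 ± 0.10 (SD, n = 5) in WT and 9.49 ± 0.034 (SD, n = 4) in KO, a difference of 0.26 in the opposite direction to the members (limma adjusted p = 0.0779). Ddit3, which encodes the stress factor Chop and is named here for its role, differed by 0.21 (limma adjusted p = 0.218), with KO samples above WT samples. The genes of the factors that bind ERSE, named here for that role after their values were seen, had negative differences and were not called. Atf6 was 6.17 ± 0.26 (SD, n = 5) in WT and 5.63 ± 0.32 (SD, n = 4) in KO, a difference of -0.55 that was the largest in size in the list, with groups that overlapped (limma adjusted p = 0.14). Of the NF-Y subunit genes, Nfyb differed by -0.29 (limma adjusted p = 0.148), Nfya by -0.16 (limma adjusted p = 0.535) and Nfyc by -0.093 (limma adjusted p = 0.577). After quantile normalisation the differences were -0.48 for Atf6, -0.23 for Nfyb, -0.089 for Nfya and -0.020 for Nfyc. Cytosolic heat shock genes had 0 limma calls among 10 (1 lower at an unadjusted p below 0.05, median 0.060), with the smallest p for the co-chaperone gene Bag3 (difference -0.51, limma adjusted p = 0.256).

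**Figure D5:**
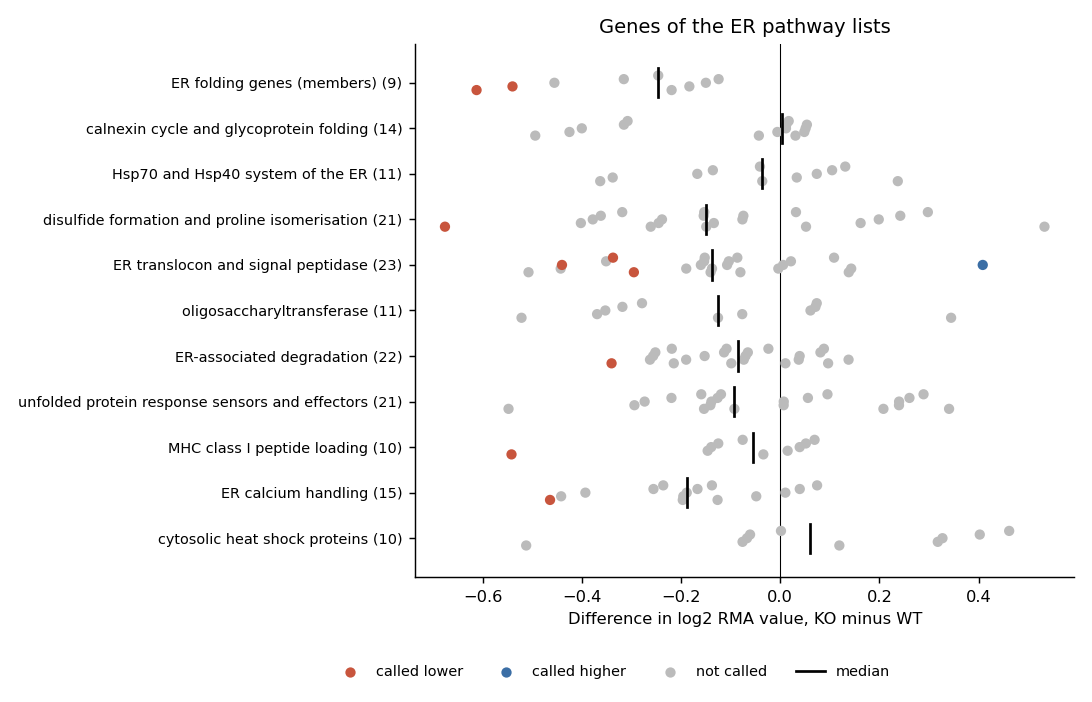
Difference in log2 RMA value, KO minus WT, of every measured gene of the ER folding group and of the 10 pathway lists (rows, number measured in brackets), with called lower genes in red, called higher genes in blue, uncalled genes in grey and the list median as a black bar. The members have a median of -0.25, the calcium handling list -0.19 and the cytosolic heat shock list 0.060.

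Outside the members, 31 measured genes held ERSE or ERSE-II in the window. Of these 0 were called in either direction by limma, 12 had a negative difference, against 49.3% of all genes, and the median was 0.043. At an unadjusted p below 0.05, 2 were lower and 2 higher, against 9.8% of all genes lower. With 1.89% of all genes called lower and 0.428% higher, a count of 0 among so few genes is near the background and is not a result about them. They include 6 genes of the pathway lists, out of the 127 of those lists that had a window. Dnajc3, which limits Perk, differed by 0.033 ± 0.057 (SE), Creld2 by -0.041 ± 0.083 (SE) and Syvn1, the ubiquitin ligase Hrd1, by 0.081 ± 0.070 (SE). The oxidase gene Ero1b differed by -0.15, Derl3 by -0.11 and Krtcap2 by -0.13.

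The same arrays were read for genes of other cell types. The 12 measured B and plasma cell markers, cells in which Xbp1 and the folding genes are known to be high, had a mean level between 4.47 and 5.09 in WT samples and between 4.71 and 5.41 in KO samples. The difference was positive for 10 of them, 0 passed the limma test (3 were higher at an unadjusted p below 0.05), and the highest level was in KO replicate 4. Myeloid markers lay between 4.87 and 5.24 in WT and between 5.21 and 5.61 in KO (9 of 10 positive, 0 called by limma, 4 higher at an unadjusted p below 0.05). Among the plasma cell markers, Mzb1 was 5.33 ± 0.24 (SD, n = 5) in WT and 5.97 ± 0.54 (SD, n = 4) in KO (limma adjusted p = 0.201). Jchain was 5.04 ± 1.03 (SD, n = 5) in WT and 5.85 ± 0.42 (SD, n = 4) in KO (limma adjusted p = 0.469), and both genes lay above the array median. Sdc1 and Tnfrsf17 had means below that median in both groups, with differences of -0.084 and 0.26. All 4 measured NK cell markers also had means below it. CD8 T cell markers lay between 5.15 and 5.68 in WT and between 5.63 and 6.19 in KO (2 of 2 positive, 0 called by limma, 1 higher at an unadjusted p below 0.05). The higher one, Cd8b1, was 6.47 ± 0.19 (SD, n = 5) in WT and 7.03 ± 0.38 (SD, n = 4) in KO (limma adjusted p = 0.133). The B and plasma cell, myeloid and CD8 T cell lists had positive median differences, opposite in sign to that of the ER folding genes, and their part in the results was not tested. The share of all genes higher at an unadjusted p below 0.05 was not taken, so those counts of higher markers are not read as results.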

How the data were processed

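RNA of 9 sorted Treg samples was amplified and biotin-labelled with NuGEN kits and hybridised to 1 array each, per the labels' protocols. The authors deposited log2 expression values, which per the submitters' processing notes came from RMA (Affymetrix Expression Console 1.1). RMA corrects background, equalises array distributions and summarises probes. The array's genome build is not used here. Of 41345 probe sets, 23521 had 1 gene symbol in the platform annotation, 1814 had several and 16010 had none listed. For genes with more than 1 probe set the one with the highest mean over all samples was used, which left 22180 genes. Groups were compared with limma 3.58.1 (lmFit, eBayes, R 4.3.3), two-sided, with p-values adjusted by Benjamini-Hochberg across every gene and dim genes kept. Without scanner values, dim signal and background cannot be told apart. The number of arrays sets the precision. The members and lists were chosen with earlier results of these data known. Named from each list were up to 3 called genes with the smallest p, or 1 if none was called, and other genes are marked where they appear. Old symbols in the lists were updated through RefSeq synonyms. Promoter windows came from RefSeq (GRCm38.p6). Same-numbered samples did not deviate together (correlations of deviations between -0.115 and 0.042), so replicate numbers were not used to pair samples. By their title numbers all WT samples precede all KO samples, and an effect of that order and genotype cannot be told apart. Alternatives covered the replicate block, dim genes, joining of probe sets, scaling, eBayes and weights, a heat shock covariate and left-out samples. Python 3.11.15, pandas 2.3.3, numpy 2.4.6 and matplotlib 3.10.9 were used.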

Additional observations from a re-analysis of the deposited data

Results flagged for a closer look

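In 60 groups of values (30 named genes, WT and KO), 5 held a sample set apart from the rest of its group, and chance flags about 1 in 20. Calr was 7.56 in KO replicate 1, below the next KO value of 7.83. Hspa5 was 9.56 in KO replicate 3, above the next KO value of 9.48. Ganab was 7.73 in WT replicate 3, Sdf4 was 7.63 in KO replicate 2 and Bag3 was 7.31 in WT replicate 5, each above the others of its group.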

How the results depend on the processing

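Across 19 alternatives all 9 members kept a negative difference. Canx and Calr passed the limma threshold in 18 of them. With a replicate block, in which WT replicate 5 has no partner and adds nothing to the comparison, Canx (-0.59, adjusted p = 0.0632) and Calr (-0.58, adjusted p = 0.0636) did not pass, 0 members and 178 genes in all were called, 162 of them shared with the 515, and of the other ER pathway genes 1 was lower and 0 higher. Same numbers do not mark a known pairing, so this is not read as a weaker effect. Leaving out 1 sample gave differences from -0.68 to -0.53 for Canx and from -0.58 to -0.47 for Calr. It gave 2 to 3 members called lower, 271 to 594 genes in all, and 3 to 14 other ER pathway genes lower and 0 to 1 higher. That pathway count was 11 with dim genes left out and 17 without KO replicates 2 and 4. Of 133 values of the other 7 members, 127 stayed on their side of the threshold and 6, each of Pdia6, passed it. Of 380 counts per list, 43 moved by over 1.5 times. The group sizes, and the absence of a background measure per probe, limit what small differences can be told.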
